A study of Homo sapiens with 8 samples.

Results

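The NF-kB genes described here are 38 genes named by a fixed list of symbols, out of 60483 gene identifiers counted in each library. They comprise 5 transcription factor subunits, 6 members of the IkB family, 4 other brakes on the pathway, 6 adaptors and ubiquitin ligases, 5 kinases, 1 ligand with 2 receptors, and 9 effectors and target genes. Chemokine genes were left out by the rule. Each symbol matched 1 identifier, and all 38 passed the filter on low counts that left 13982 genes for testing. The cells were NB4, an established line of acute promyelocytic leukemia whose hallmark is PML/RARα, a fusion protein joining PML to the retinoic acid receptor α. Every group had the endogenous fusion knocked down by lentivirus and was taken at 72 h. What differed was the replacement: HA-tagged PML/RARα lacking the IDR (ΔIDR), HA-tagged PML/RARα with the mutation F158E, HA-tagged full-length PML/RARα, or an empty vector. The labels describe both mutants as unable to phase separate. There were 2 libraries in each of the 4 groups, all from the 1 line, and no library without the knock-down was analysed here.

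NF-kB is a family of dimeric transcription factors that wait in the cytoplasm bound to inhibitors of the IkB family. When receptors for tumor necrosis factor, interleukin 1 or microbial products are engaged, adaptors and ubiquitin ligases assemble a scaffold that activates the IkB kinases, the inhibitor is destroyed and the dimer enters the nucleus. A second, slower branch runs through a kinase called NIK and the processing of the NFKB2 product. Many target genes encode the pathway's own inhibitors and subunits, so the transcripts of these genes are widely read as a record of NF-kB activity in myeloid cells.

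Gene counts summed to between 16779364 and 21965389 per library, and levels below are CPM, reads of a gene scaled to a common library total with edgeR's TMM factors. Changes are given on the log2 scale with their SE, from edgeR fits to n = 2 libraries a group. Whether they stem from separate cultures is not stated in the labels. The p-values therefore measure only how far these libraries spread, and that spread may be technical. RARA was at 1351 and 1364 CPM with ΔIDR, 32.4 and 32.2 CPM with F158E, 78.3 and 75.6 CPM with full-length PML/RARα and 24.1 and 22.1 CPM with empty vector, so the amount of RARA RNA differed together with the construct. PML stood at 445 and 440.0 CPM with ΔIDR, 65.8 and 66.1 CPM with F158E, 127 and 121 CPM with full-length PML/RARα and 51.0 and 52.8 CPM with empty vector. Promyelocyte markers were well counted in every library, led by MPO at group means of 3449 to 4139 CPM, except ELANE, which had 0 to 2 counts. Of the monocyte and macrophage markers, MRC1, VCAN and CD163 had at most 10 counts in a library, while FCGR1A and CSF1R were counted throughout. Among markers of other lineages, CD3E, KRT18, HBA1, PF4 and MS4A1 had 0 or 1 counts, while NKG7 had 346 to 880, ITGA2B 73 to 315, EPCAM 115 to 272 and CD79A 36 to 76.

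The NF-kB genes as a group were lower with full-length PML/RARα than with empty vector and higher with either mutant than with full-length PML/RARα. With full-length PML/RARα against empty vector, 25 of the 38 genes fell and 3 rose at a Benjamini-Hochberg adjusted p under 0.05. In the same comparison 24.4% of all 13982 tested genes fell and 24.2% rose, 48.6% in all. The median log2 change of the 38 was -0.85, where the medians over all tested genes lay between -0.0053 and 0.0046 in the 6 comparisons made here. With so many genes past that limit, a second test asked for a change beyond 1.5-fold, and 16 members passed it, all of them lower, where 9.50% of all genes passed in either direction. With F158E against full-length PML/RARα, 22 members rose and 4 fell, a median of 0.63, where 22.2% of all genes rose and 21.8% fell (43.9% in all). Beyond 1.5-fold there were 14, all higher, against 6.67% of all genes. With ΔIDR against full-length PML/RARα, 28 members rose and 2 fell, a median of 0.67, where 24.9% of all genes rose and 24.9% fell (49.9% in all). Beyond 1.5-fold there were 18, all higher, against 11.5% of all genes. The counts include BIRC3 in all 3 comparisons and TNFRSF1B with ΔIDR. Both genes were under the filter level in both full-length libraries and entered the test through other groups, so their calls are no support. The 3 comparisons share the full-length libraries, and are set side by side for that reason only.

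By group mean, full-length cells held the lowest level for 31 of the 38 genes, where they held the lowest level for 38.3% of all tested genes. The highest mean was in ΔIDR cells for 14, in F158E cells for 3, in full-length cells for 5 and in empty vector cells for 16. Over all tested genes, the highest mean was in ΔIDR cells for 24.5%, in F158E cells for 17.0%, in full-length cells for 38.2% and in empty vector cells for 20.2%. The summed level of the monocyte and macrophage markers moved in the same direction. It was 55.2 and 51.4 CPM with ΔIDR, 55.4 and 55.7 CPM with F158E, 24.4 and 25.1 CPM with full-length PML/RARα and 58.8 and 63.5 CPM with empty vector. FCGR1A made up most of these sums, with means of 43.4, 45.7, 19.7 and 47.2 CPM in that order. FCGR1A and CSF1R fell with full-length PML/RARα against empty vector, by 1.26 ± 0.10 and 1.39 ± 0.20 on the log2 scale. CD14, the third of the 6 markers to be tested, had 1 and 0 counts with full-length PML/RARα and 14 and 27 with empty vector. It passed the filter only through libraries of other groups, so its call is given no weight here. The summed promyelocyte markers were at 4696 and 4780 CPM with ΔIDR, 4506 and 4379 CPM with F158E, 3786 and 3769 CPM with full-length PML/RARα and 4294 and 4217 CPM with empty vector. MPO made up most of these sums. Of the 5 promyelocyte markers tested, 4 fell with full-length PML/RARα against empty vector, where 24.4% of all genes fell, and 1 did not pass. AZU1 averaged 27.7 CPM with full-length PML/RARα and 73.0 CPM with empty vector. PECAM1, listed with endothelial markers and also made by myeloid cells, averaged 77.4 CPM with ΔIDR, 50.2 CPM with F158E, 35.3 CPM with full-length PML/RARα and 62.9 CPM with empty vector. NKG7, listed with NK cell markers, averaged 40.7 CPM with ΔIDR, 21.5 CPM with F158E, 22.6 CPM with full-length PML/RARα and 31.6 CPM with empty vector. EPCAM, an epithelial marker, went the other way, at 8.54, 10.2, 12.6 and 7.46 CPM in the same order. KRT8, at 1 to 31 counts, was also highest with full-length PML/RARα. Of the 4 tested epithelial, fibroblast and endothelial markers, 2 rose and 2 fell with full-length against empty vector. Among all genes 24.2% rose and 24.4% fell. The part of these genes in the NF-kB result was not tested. In bulk RNA, fewer cells carrying a transcript and less of it per cell cannot be told apart.

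**Figure D1:**
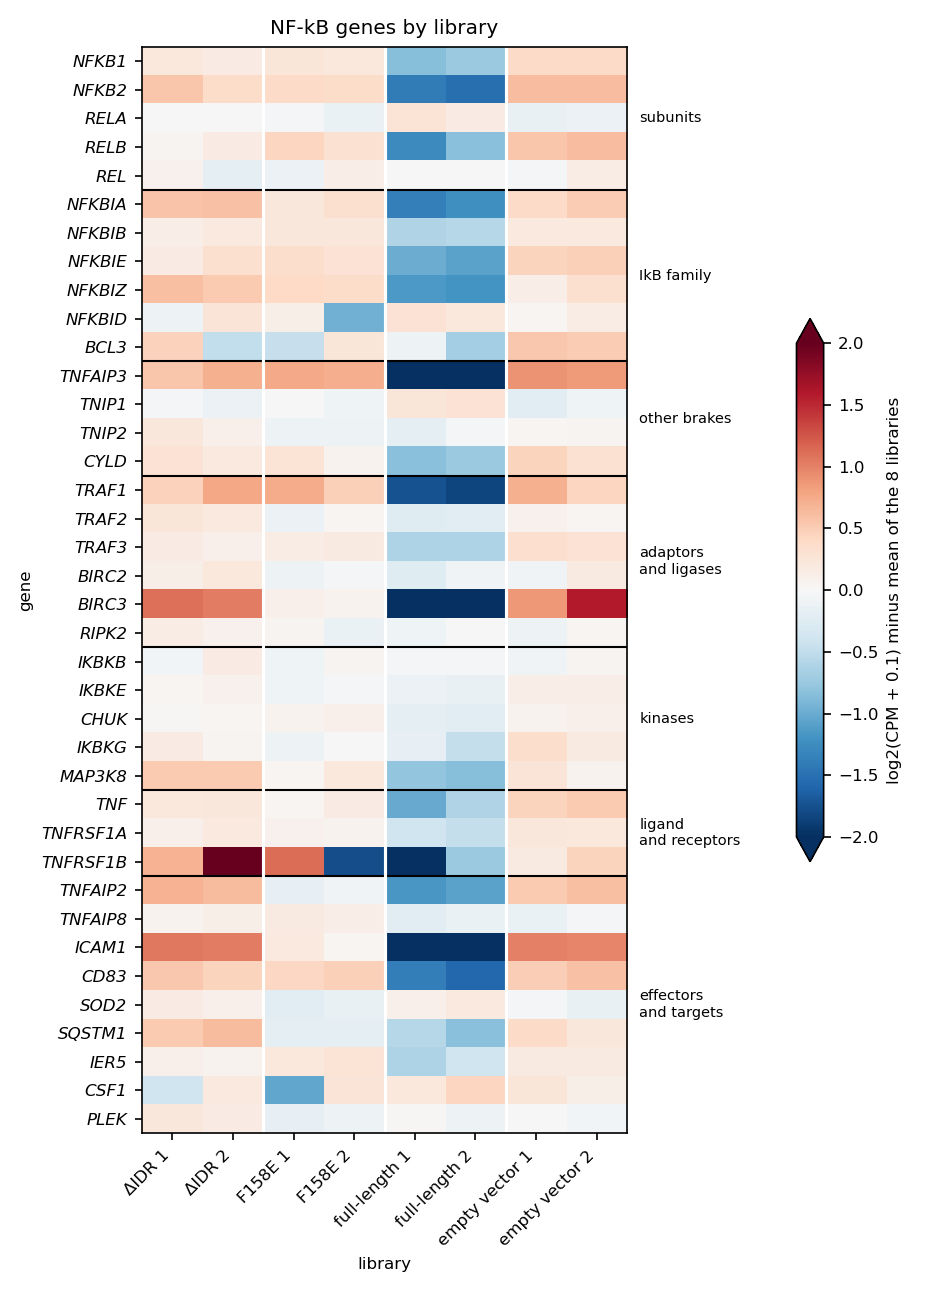
Level of each of the 38 NF-kB genes (rows, grouped by role) in each of the 8 libraries (columns), as log2(CPM + 0.1) minus the gene's mean over the libraries. Blue is below and red above that mean, and the color scale ends at 2 log2 units on either side. The 2 full-length libraries are the blue columns for most rows, with RELA, TNIP1 and SOD2 among the exceptions, and the TNFRSF1B row shows libraries of the same group far apart.

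The promoters of 5 members are shown, picked by adjusted p or added afterwards, as follows. ICAM1, TNFAIP3 and NFKB2 had the smallest adjusted p-values among members that changed at least 2-fold with full-length PML/RARα, and all 3 fell. No member rose that far. NFKBIA, the classical IkB gene, and RELA, the subunit gene that rose, were added after their values were seen. Each window runs from 250 bases before to 50 bases after the gene's RefSeq start (GRCh38.p14), 5′ to 3′ on the gene's own strand. Capitals mark matches to GGNNNTTCC, a short form of the NF-kB binding motif, or to the general kappaB consensus, which overlaps it. Each was searched on both strands. The windows are chr19:10270870-10271169 on the plus strand for ICAM1, chr6:137867009-137867308 on the plus strand for TNFAIP3, chr10:102393860-102394159 on the plus strand for NFKB2, chr14:35404700-35404999 on the minus strand for NFKBIA and chr11:65663808-65664107 on the minus strand for RELA.
ICAM1: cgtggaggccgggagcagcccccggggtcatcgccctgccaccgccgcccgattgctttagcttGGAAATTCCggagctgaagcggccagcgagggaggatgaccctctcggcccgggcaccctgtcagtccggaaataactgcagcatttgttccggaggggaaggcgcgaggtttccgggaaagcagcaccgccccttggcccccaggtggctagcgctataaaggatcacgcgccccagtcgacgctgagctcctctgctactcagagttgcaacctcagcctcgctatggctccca
TNFAIP3: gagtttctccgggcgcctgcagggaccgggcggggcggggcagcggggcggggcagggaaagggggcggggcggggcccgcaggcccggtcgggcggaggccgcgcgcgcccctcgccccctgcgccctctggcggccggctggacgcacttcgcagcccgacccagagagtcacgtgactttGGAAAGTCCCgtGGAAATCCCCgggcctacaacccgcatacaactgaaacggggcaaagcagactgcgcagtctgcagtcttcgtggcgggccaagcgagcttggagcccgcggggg
NFKB2: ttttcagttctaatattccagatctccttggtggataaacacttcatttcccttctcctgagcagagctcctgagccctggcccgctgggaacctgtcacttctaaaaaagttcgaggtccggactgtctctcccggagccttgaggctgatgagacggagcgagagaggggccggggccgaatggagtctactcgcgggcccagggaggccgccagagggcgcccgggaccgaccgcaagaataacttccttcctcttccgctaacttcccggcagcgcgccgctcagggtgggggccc
NFKBIA: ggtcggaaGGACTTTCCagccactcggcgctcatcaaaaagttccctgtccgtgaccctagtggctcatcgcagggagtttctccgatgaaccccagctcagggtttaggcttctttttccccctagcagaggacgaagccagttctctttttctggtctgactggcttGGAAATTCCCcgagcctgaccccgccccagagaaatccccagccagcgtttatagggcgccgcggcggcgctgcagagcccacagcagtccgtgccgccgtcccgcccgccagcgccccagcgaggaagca
RELA: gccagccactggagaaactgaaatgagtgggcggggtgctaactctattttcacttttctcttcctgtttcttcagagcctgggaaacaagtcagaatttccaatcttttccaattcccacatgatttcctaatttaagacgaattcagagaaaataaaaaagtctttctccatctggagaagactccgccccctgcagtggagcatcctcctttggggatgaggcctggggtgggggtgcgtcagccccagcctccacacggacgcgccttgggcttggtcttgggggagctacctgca

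ICAM1 held GGAAATTCC 186 bases before the start, a run that matches the short motif on either strand. TNFAIP3 held 2 neighboring matches on the minus strand, beginning 67 and 55 bases before the start, and NFKBIA held GGACTTTCC at 242 bases and GGAAATTCC at 81 bases. Both TNFAIP3 matches and the one of NFKBIA at 81 bases also fit the general consensus on the minus strand. Neither motif occurred in the windows of NFKB2 and RELA, which says only that these letters are not in these 300 bases. Windows were on hand for 33 of the 38 members, without RELB, NFKBIE, RIPK2, IKBKB and CSF1. GGNNNTTCC occurred in 13 of the 33 windows (39.4%), where it occurred in 20.1% of all 35116 promoter windows. The general consensus occurred in 9 of the 33 (27.3%), where it occurred in 11.3% of all windows. Among the 14 members with a window that fell beyond 1.5-fold with full-length PML/RARα, 9 held GGNNNTTCC, and among the other 19 members 4 did. These sets were split by their outcome in these data, so the counts are no test. A match of letters is a description and does not show that a factor bound there.

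The counts by role that follow are of few genes each. They are to be read against the shares of all genes called in the same comparison. These were 48.6% with full-length against empty vector, 43.9% with F158E and 49.9% with ΔIDR against full-length. By direction, 24.4% of all genes fell in the first of these, and 22.2% and 24.9% rose in the others. Of the 5 subunit genes, NFKB1, NFKB2 and RELB fell with full-length PML/RARα, RELA rose and REL did not pass. NFKB2, whose long product is both a subunit precursor and an inhibitor, was at 122 and 107 CPM with ΔIDR, 108 and 107 CPM with F158E, 31.5 and 29.04 CPM with full-length PML/RARα and 128 and 128 CPM with empty vector. The full-length libraries lay far below the other 6. The log2 change was -2.08 ± 0.07 with full-length PML/RARα against empty vector (adjusted p = 7.89e-44), 1.83 ± 0.07 with F158E against full-length and 1.91 ± 0.07 with ΔIDR against full-length. NFKB1, the precursor gene of the smaller subunit of the classical dimer, was at 166 and 161 CPM with ΔIDR, 171 and 167 CPM with F158E, 79.6 and 85.7 CPM with full-length PML/RARα and 188 and 188 CPM with empty vector. It fell by 1.18 ± 0.05 with full-length PML/RARα and rose by 1.03 ± 0.05 with F158E and 0.99 ± 0.05 with ΔIDR. RELB, the partner of the NFKB2 product in the slower branch, was at 16.3 and 17.5 CPM with ΔIDR, 21.1 and 19.3 CPM with F158E, 6.42 and 8.75 CPM with full-length PML/RARα and 23.1 and 24.0 CPM with empty vector. Its changes were -1.63 ± 0.15, 1.41 ± 0.15 and 1.16 ± 0.15 in the same 3 comparisons.

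RELA, the gene of the classical transactivating subunit, went the other way. It was at 61.1 and 61.8 CPM with ΔIDR, 59.8 and 56.6 CPM with F158E, 74.9 and 69.5 CPM with full-length PML/RARα and 55.7 and 57.1 CPM with empty vector. Both full-length libraries lay above all 6 others. RELA rose by 0.36 ± 0.07 with full-length PML/RARα against empty vector (adjusted p = 2.62e-05), and fell by 0.31 ± 0.07 with F158E and by 0.23 ± 0.07 with ΔIDR against full-length (adjusted p = 2.24e-04 and 0.00584). The last of these calls was lost without full-length replicate 1, at -0.17 and an adjusted p of 0.155. REL, a subunit prominent in lymphoid and myeloid cells, stood at 14.7 to 18.8 CPM in all 8 libraries, with overlapping groups and a log2 change of -0.06 ± 0.14 with full-length PML/RARα against empty vector.

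Divided by exon length, the make-up of the subunit transcripts differed between full-length cells and the rest. RELA supplied 15.6% and 16.7% of the summed CPM per kilobase of the 5 subunits with ΔIDR, 15.5% and 15.1% with F158E, 37.2% and 34.3% with full-length PML/RARα and 13.1% and 13.3% with empty vector. NFKB2 supplied 37.9% and 35.1% with ΔIDR, 34.2% and 34.7% with F158E, 19.1% and 17.5% with full-length PML/RARα and 36.8% and 36.4% with empty vector. NFKB1 kept a similar share, 34.5% to 38.9% over the 8 libraries. NFKB1 averaged 26.2 CPM per kilobase with ΔIDR, 27.0 with F158E, 13.2 with full-length PML/RARα and 30.0 with empty vector. RELA averaged 11.3 CPM per kilobase with ΔIDR, 10.7 with F158E, 13.2 with full-length PML/RARα and 10.3 with empty vector. By these means the 2 stood level in full-length cells. These shares are descriptions of RNA, given without a test.

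**Figure D2:**
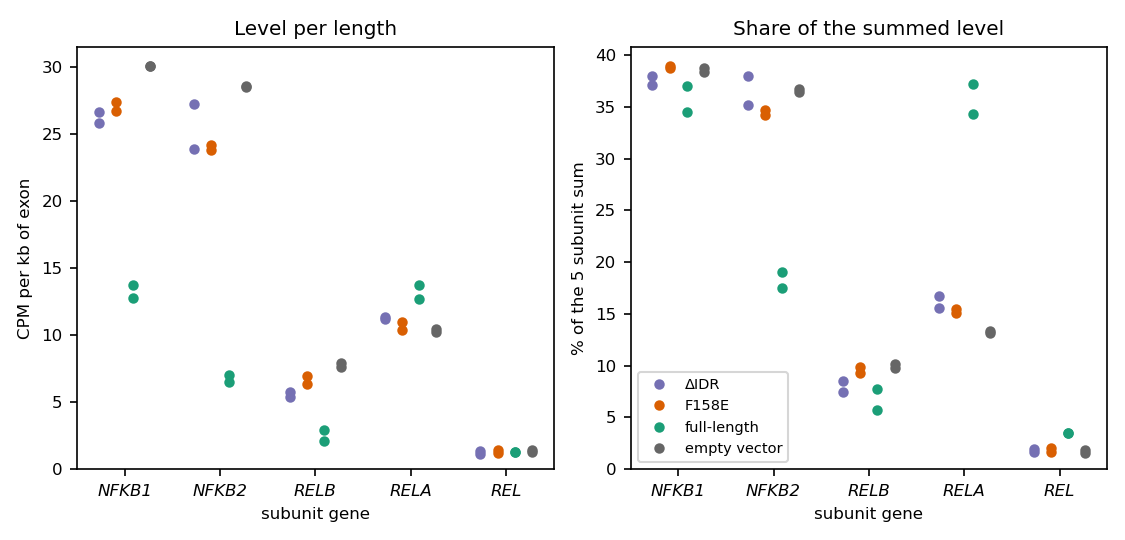
The 5 NF-kB subunit genes in each library (points, 2 for each group), as CPM per kilobase of exon (left) and as percent of the sum over the 5 genes (right). Per kilobase, the full-length points are the lowest for NFKB1, NFKB2 and RELB and the highest for RELA, whose share there is 34.3% and 37.2%.

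In the IkB family, 5 of 6 genes fell with full-length PML/RARα, and 4 of 6 rose with F158E and with ΔIDR. NFKBIA, the inhibitor that NF-kB itself induces within minutes of activation, was at 123 and 125 CPM with ΔIDR, 97.5 and 103 CPM with F158E, 32.0 and 35.3 CPM with full-length PML/RARα and 109 and 119 CPM with empty vector. It fell by 1.76 ± 0.07 with full-length PML/RARα (adjusted p = 6.29e-39) and rose by 1.58 ± 0.07 with F158E and 1.88 ± 0.07 with ΔIDR. NFKBIE, a further cytoplasmic inhibitor, was at 58.1 and 64.7 CPM with ΔIDR, 65.7 and 63.1 CPM with F158E, 26.0 and 24.6 CPM with full-length PML/RARα and 70.7 and 71.9 CPM with empty vector, a 2.81-fold fall with full-length PML/RARα. NFKBIB, the slower-acting inhibitor, changed less, by -0.79 ± 0.11, 0.81 ± 0.10 and 0.76 ± 0.11 on the log2 scale with full-length against empty vector, F158E against full-length and ΔIDR against full-length. NFKBIZ, a nuclear IkB protein that helps switch on secondary response genes, was at 15.1 and 14.2 CPM with ΔIDR, 13.0 and 12.8 CPM with F158E, 4.38 and 4.26 CPM with full-length PML/RARα and 10.8 and 12.4 CPM with empty vector. Its fall with full-length PML/RARα was 2.68-fold.

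The 2 remaining nuclear IkB genes were sparsely counted. BCL3, which pairs with subunits that lack a transactivation domain, was at 1.52 to 3.67 CPM over the 8 libraries and fell by 0.91 ± 0.38 with full-length PML/RARα (adjusted p = 0.0385). That call was lost under 5 of 14 alternatives, with adjusted p values up to 0.264 without full-length replicate 2. NFKBID ran from 2.10 to 5.17 CPM and passed in none of the 3 comparisons. Its 2 F158E libraries differed more from each other, at 4.57 and 2.10 CPM, than the means of the other groups did. Without F158E replicate 1, NFKBID was called lower with F158E against full-length, at -1.26 and an adjusted p of 0.00268.

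Of the other brakes, TNFAIP3 and CYLD fell with full-length PML/RARα and TNIP1 rose. TNFAIP3, a ubiquitin-editing enzyme that shuts off signalling from the tumor necrosis factor receptor, was at 95.04 and 106 CPM with ΔIDR, 109 and 107 CPM with F158E, 12.8 and 14.2 CPM with full-length PML/RARα and 121 and 116 CPM with empty vector. It was 8.78-fold lower with full-length PML/RARα than with empty vector (adjusted p = 5.46e-52). With F158E it was 8.0-fold higher and with ΔIDR 7.45-fold higher than with full-length PML/RARα. CYLD, a deubiquitinase that removes the chains TNFAIP3 also acts on, was at 79.4 and 74.9 CPM with ΔIDR, 78.5 and 68.6 CPM with F158E, 36.5 and 38.9 CPM with full-length PML/RARα and 89.0 and 80.5 CPM with empty vector. Its log2 changes were -1.17 ± 0.08, 0.96 ± 0.08 and 1.03 ± 0.08 in the order given above for NFKBIB. TNIP1, which binds the TNFAIP3 product and ubiquitin chains, rose with full-length PML/RARα by 0.41 ± 0.08 (adjusted p = 8.14e-06), with 62.9 and 65.1 CPM in full-length libraries and 46.1 to 53.7 CPM in the other 6. It fell by 0.30 ± 0.08 with F158E and by 0.34 ± 0.08 with ΔIDR. TNIP2, its relative, was at 47.8 to 62.9 CPM. Of the 3 comparisons with the full-length libraries it passed with ΔIDR, at 0.27 ± 0.08 (adjusted p = 0.00340). That call was lost without full-length replicate 1 and without ΔIDR replicate 1, at adjusted p values of 0.0819 and 0.0609.

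Among adaptors and ligases, TRAF1, TRAF2, TRAF3 and BIRC3 fell with full-length PML/RARα, and BIRC2 and RIPK2 did not pass. With F158E 3 of the 6 rose and with ΔIDR 5. The 3 of 6 stand near the 43.9% of all genes called in either direction with F158E. BIRC3, an inducible ubiquitin ligase and caspase-binding protein, had few reads. Counts were 91 and 114 with ΔIDR, 59 and 58 with F158E, 6 and 8 with full-length PML/RARα and 86 and 147 with empty vector. Its log2 change was -3.92 ± 0.40 with full-length against empty vector, 2.71 ± 0.43 with F158E against full-length and 3.71 ± 0.41 with ΔIDR against full-length. BIRC3 and TNFRSF1B were under the level of the low-count filter in both full-length libraries and entered the test through the other groups. Their calls against full-length cells are therefore given no weight. TRAF1, an inducible adaptor without a ligase domain, had 54 and 89 counts with ΔIDR, 87 and 72 with F158E, 11 and 10 with full-length PML/RARα and 72 and 60 with empty vector. It fell by 2.53 ± 0.41 with full-length PML/RARα. TRAF3, which keeps NIK unstable and so restrains the slower branch, was at 111 and 106 CPM with ΔIDR, 109.6 and 112 CPM with F158E, 64.8 and 64.7 CPM with full-length PML/RARα and 125 and 121 CPM with empty vector, a fall of 0.92 ± 0.06 with full-length PML/RARα.

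TRAF2, the adaptor that brings BIRC2 and BIRC3 to the receptor, moved less. Its fall of 0.29 ± 0.10 with full-length PML/RARα (adjusted p = 0.00721) was lost without empty vector replicate 1 and without full-length replicate 1, at adjusted p values of 0.0545 and 0.0501. With ΔIDR against full-length it rose by 0.45 ± 0.09, and with F158E the value was 0.19 ± 0.09 (adjusted p = 0.0876). BIRC2, the constitutive relative of BIRC3, was at 36.0 to 49.1 CPM. It rose with ΔIDR by 0.31 ± 0.09, a call lost without full-length replicate 1 (adjusted p = 0.0832). Its value of -0.21 ± 0.09 with full-length against empty vector missed the limit at an adjusted p of 0.0512 and passed under 7 of 14 alternatives, with adjusted p values down to 0.0112 without empty vector replicate 1. RIPK2, the kinase that links intracellular receptors of bacterial cell wall fragments to NF-kB, stayed at 24.7 to 30.0 CPM in every library and passed in none of the 3 comparisons.

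Of the 5 kinases, 4 fell with full-length PML/RARα, 2 rose with F158E and 3 rose with ΔIDR, most of them by small amounts. The 2 of 5 called with F158E and the 3 of 5 called with ΔIDR were all higher. These counts stand near the 43.9% and 49.9% of all genes called in either direction. IKBKB, the main catalytic IkB kinase, was at 52.1 to 61.5 CPM in the 8 libraries, with overlapping groups and log2 changes of -0.02 ± 0.08, 0.02 ± 0.08 and 0.09 ± 0.08 with full-length against empty vector, F158E against full-length and ΔIDR against full-length. CHUK, the other catalytic subunit, was at 122 and 123 CPM with ΔIDR, 126 and 129 CPM with F158E, 106 and 102 CPM with full-length PML/RARα and 126 and 129.6 CPM with empty vector, changes of -0.30 ± 0.05, 0.29 ± 0.05 and 0.23 ± 0.05. IKBKE, a related kinase better known from interferon induction, fell by 0.26 ± 0.07 with full-length PML/RARα and rose by 0.20 ± 0.07 with ΔIDR. The ΔIDR call was lost without full-length replicate 2 and without ΔIDR replicate 2, at adjusted p values of 0.0558 and 0.0595. IKBKG, the regulatory subunit, was at 5.89 to 10.6 CPM and fell by 0.59 ± 0.20 with full-length PML/RARα (adjusted p = 0.00982), a call lost without empty vector replicate 1 and without full-length replicate 2, at 0.0926 and 0.154. With ΔIDR against full-length it was not called, but passed without full-length replicate 1 (adjusted p = 0.0440). IKBKG has a near-identical pseudogene copy, so its count is uncertain. MAP3K8, a kinase released when the NFKB1 product is processed, was the exception in size, with 11.9 and 11.8 CPM with ΔIDR, 8.403 and 9.50 CPM with F158E, 4.72 and 4.49 CPM with full-length PML/RARα and 9.87 and 8.66 CPM with empty vector. It was 2.01-fold lower with full-length PML/RARα than with empty vector.

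The ligand and its receptors gave 2 lower of 3 with full-length PML/RARα, 2 higher with F158E and 3 higher with ΔIDR. The count with ΔIDR includes TNFRSF1B, which was under the filter level in both full-length libraries. TNF, the cytokine that is both a trigger and a target of the pathway, was at 16.6 and 16.8 CPM with ΔIDR, 14.8 and 16.1 CPM with F158E, 7.05 and 9.45 CPM with full-length PML/RARα and 19.5 and 20.6 CPM with empty vector. It fell by 1.28 ± 0.16 with full-length PML/RARα and rose by 0.90 ± 0.16 with F158E and 1.02 ± 0.16 with ΔIDR. TNFRSF1A, the widely expressed receptor, was at 177 and 188 CPM with ΔIDR, 175 and 173 CPM with F158E, 125 and 118 CPM with full-length PML/RARα and 193 and 191 CPM with empty vector. Its fall with full-length PML/RARα was 0.66 ± 0.05. TNFRSF1B, the receptor restricted to fewer cell types, had 16 and 61 counts with ΔIDR, 29 and 2 with F158E, 1 and 5 with full-length PML/RARα and 12 and 15 with empty vector. Libraries of the same group differed so widely that no fold is given. Its call with ΔIDR against full-length (adjusted p = 4.38e-04) was lost without ΔIDR replicate 2, at an adjusted p of 0.0654. The other 2 comparisons, not called here, passed under 5 and 4 of 14 alternatives, at adjusted p values down to 0.0205 (full-length against empty vector, without full-length replicate 2) and 0.0044 (F158E against full-length, without F158E replicate 2).

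Among effectors and target genes, 5 of 9 were lower and 1 higher with full-length PML/RARα, 6 higher and 2 lower with F158E against full-length, and 7 higher and none lower with ΔIDR against full-length. ICAM1, the adhesion molecule that leukocyte integrins bind, was at 228 and 224 CPM with ΔIDR, 125 and 112 CPM with F158E, 25.4 and 23.9 CPM with full-length PML/RARα and 219.6 and 215 CPM with empty vector. Its exons overlap antisense genes in the annotation, as do those of TNFAIP3, CYLD, IKBKE and CHUK, and reads of the 2 strands cannot be told apart. It had the smallest adjusted p of the members with full-length PML/RARα against empty vector (1.49e-61, 8.82-fold lower). It was 4.82-fold higher with F158E and 9.15-fold higher with ΔIDR than with full-length PML/RARα. CD83, a surface protein of activated dendritic cells and other leukocytes, was at 106 and 100.02 CPM with ΔIDR, 98.1 and 103 CPM with F158E, 28.3 and 24.6 CPM with full-length PML/RARα and 104 and 111 CPM with empty vector, 4.05-fold lower with full-length PML/RARα. TNFAIP2, a cytokine-induced gene linked to membrane protrusions, was at 118 and 114 CPM with ΔIDR, 65.7 and 70.0 CPM with F158E, 32.7 and 35.0 CPM with full-length PML/RARα and 105 and 112 CPM with empty vector. SQSTM1, a receptor for selective autophagy that also scaffolds NF-kB signalling, was at 167 and 182 CPM with ΔIDR, 102 and 103 CPM with F158E, 78.9 and 65.4 CPM with full-length PML/RARα and 153 and 137 CPM with empty vector. These last genes fell by 1.68 ± 0.07 and 1.01 ± 0.06 on the log2 scale with full-length PML/RARα.

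The rest of this set changed less. IER5, an immediate-early gene, was at 24.4 and 24.0 CPM with ΔIDR, 26.5 and 27.6 CPM with F158E, 14.9 and 17.3 CPM with full-length PML/RARα and 25.8 and 25.9 CPM with empty vector. SOD2, the mitochondrial superoxide dismutase and a much used NF-kB target, was at 114 and 109 CPM with ΔIDR, 87.5 and 92.5 CPM with F158E, 109.7 and 117 CPM with full-length PML/RARα and 99.0 and 92.5 CPM with empty vector. It rose by 0.24 ± 0.06 with full-length PML/RARα (adjusted p = 2.66e-04) and fell by 0.33 ± 0.06 with F158E, while ΔIDR and full-length libraries overlapped. TNFAIP8, a regulator of cell death, was at 167 to 219 CPM, did not pass with full-length PML/RARα against empty vector (-0.09 ± 0.04, adjusted p = 0.0914, and 0.0392 without empty vector replicate 1), and rose by 0.33 ± 0.04 with F158E and 0.26 ± 0.04 with ΔIDR. PLEK, a substrate of protein kinase C in leukocytes and platelets, was at 263 and 253 CPM with ΔIDR, 201 and 209 CPM with F158E, 229 and 209 CPM with full-length PML/RARα and 226 and 217 CPM with empty vector. Its rise with ΔIDR was 0.23 ± 0.04. Its change of -0.10 ± 0.04 with F158E (adjusted p = 0.0474) was lost under 9 of 14 alternatives, at adjusted p values up to 0.738 without full-length replicate 1. CSF1, the macrophage growth factor gene, had 6 to 18 counts in a library and passed in no comparison.

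Against empty vector, the mutants left smaller differences. With F158E 9 of the 38 genes were lower and 1 was higher, where 4.67% of all tested genes were lower and 3.98% higher (8.65% in all). The median over the members was -0.14. Beyond 1.5-fold there was 1 member, ICAM1, against 0.172% of all genes. With ΔIDR against empty vector 4 were lower and 4 higher, where 5.23% of all genes were lower and 5.06% higher (10.3% in all), and the median was -0.01. None passed the test beyond 1.5-fold in edgeR, where 0.787% of all genes did, and none did at an unadjusted p under 0.05 in that test. DESeq2, which tested for any change, called 3 higher and 4 lower.

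The comparison of the mutants with each other asked whether they leave the pathway at different levels. With ΔIDR against F158E, edgeR called 9 members higher and 0 lower, where 9.17% of all tested genes were higher and 9.37% lower (18.5% in all). Counted at an unadjusted p under 0.05 there were 12 higher and 0 lower, and DESeq2 also called 9 higher and 0 lower. Beyond 1.5-fold there were 3, ICAM1, TNFAIP2 and SQSTM1, against 1.59% of all genes. From the levels given above, ICAM1 was 1.90-fold higher with ΔIDR than with F158E, a log2 difference of 0.93 ± 0.05 (adjusted p = 1.45e-29). TNFAIP2 differed by 0.78 ± 0.06 and SQSTM1 by 0.77 ± 0.06. BIRC3 differed by 1.00 ± 0.30 (adjusted p = 0.0103) on counts of 58 to 114, and this call was lost without F158E replicate 2, at an adjusted p of 0.0517. Smaller differences of 0.33 ± 0.04 for PLEK, 0.31 ± 0.06 for NFKBIA, 0.31 ± 0.06 for SOD2, 0.26 ± 0.08 for TNIP2 and 0.25 ± 0.09 for TRAF2 also passed. The TRAF2 call was lost under 4 of 14 alternatives, at adjusted p values up to 0.334 without F158E replicate 1, and the TNIP2 call under 2, at up to 0.156 without ΔIDR replicate 1.

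With F158E against empty vector, ICAM1 was lower by a log2 change of -0.87 ± 0.05 (adjusted p = 3.47e-27), TNFAIP2 by -0.67 ± 0.06, SQSTM1 by -0.50 ± 0.06 and BIRC3 by -1.21 ± 0.30. The BIRC3 call was lost without empty vector replicate 2, at -0.79. With ΔIDR, SQSTM1 was higher than with empty vector by 0.27 ± 0.05 (adjusted p = 1.43e-04), PLEK by 0.22 ± 0.04, SOD2 by 0.22 ± 0.06 and TNFAIP8 by 0.18 ± 0.04. Of the 8 calls with ΔIDR against empty vector, that of PLEK alone held under all 14 alternatives. SQSTM1 was lost in DESeq2 and without empty vector replicate 2, at adjusted p values of 0.118 and 0.0648. TNFAIP3 and CD83 did not pass between the mutants: TNFAIP3 had a difference of -0.10 ± 0.06 between ΔIDR and F158E (adjusted p = 0.275), and CD83 had 0.04 ± 0.06 (adjusted p = 0.769). NFKB1 was lower than with empty vector in either mutant, by -0.15 ± 0.05 with F158E and -0.20 ± 0.05 with ΔIDR, calls that each failed without at least 1 library. NFKB2 was lower with F158E, by -0.25 ± 0.06 (adjusted p = 0.00162). RELB was lower with ΔIDR, by -0.48 ± 0.14 (adjusted p = 0.0109), a call lost without either empty vector library and without ΔIDR replicate 1, at adjusted p values of 0.0633 to 0.122. RARA RNA was 42.0-fold higher in ΔIDR than in F158E cells, and PML averaged 442 and 65.9 CPM there. The mutation and the amount of transgene RNA therefore cannot be told apart. The same holds for either mutant against full-length PML/RARα. RARA averaged 77.0 CPM with full-length PML/RARα, 32.3 CPM with F158E, 1358 CPM with ΔIDR and 23.1 CPM with empty vector. In F158E against empty vector, the mutation and the small amount of added RARA RNA likewise cannot be told apart.

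**Figure D3:**
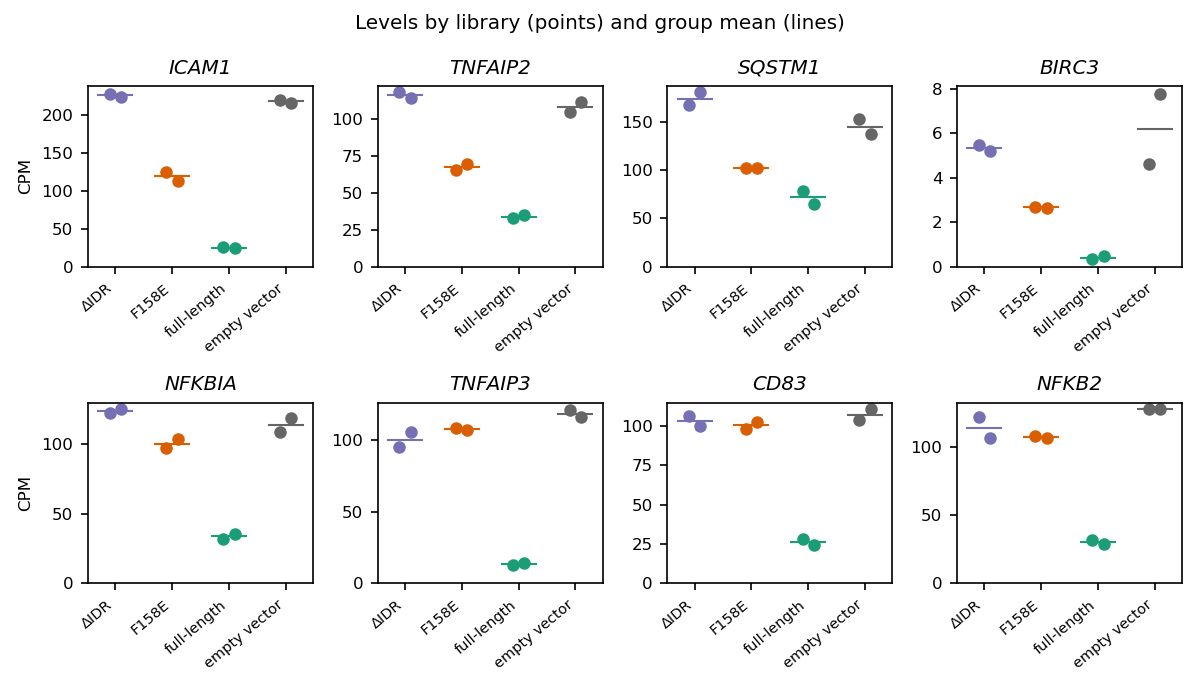
CPM of 8 NF-kB genes in each library (points) with group means (lines), in ΔIDR, F158E, full-length and empty vector cells. For ICAM1, TNFAIP2, SQSTM1 and BIRC3 the F158E points lie between the full-length points and those of ΔIDR and empty vector, as for ICAM1 at 125 and 112 CPM. For TNFAIP3, CD83 and NFKB2 the F158E points lie near the ΔIDR points.

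Other genes of the pathway, listed apart from the 38, fell in 27, rose in 9 and did not pass in 14 of 50 tested with full-length PML/RARα against empty vector. Of 37 receptor and upstream signalling genes, 30 were tested, of which 8 rose, 12 fell and 10 did not pass, with a median log2 change of -0.08. Of 26 further target genes that are not chemokines, 20 were tested, of which 1 rose, 15 fell and 4 did not pass, with a median of -0.64. With F158E against full-length the upstream genes rose in 8 and fell in 9 of 30, and the targets rose in 11 and fell in 1 of 20. With ΔIDR against full-length the counts were 12 and 6 of 30, and 10 and 2 of 20. The background shares given above for each comparison apply here too. These counts include CD14 among the upstream genes and TNFSF15 among the targets. In the full-length libraries CD14 had 1 and 0 counts and TNFSF15 had 1 and 2, under the filter level. Both entered the test through other groups, so their calls against full-length cells are no support.

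Among upstream genes, LTBR, a receptor that feeds the slower branch, was at 24.5 and 32.1 CPM with ΔIDR, 31.1 and 32.7 CPM with F158E, 52.6 and 56.2 CPM with full-length PML/RARα and 26.0 and 24.7 CPM with empty vector. It rose by 1.10 ± 0.10 with full-length PML/RARα. IRAK1, a kinase downstream of the interleukin 1 receptor, rose by 0.29 ± 0.03, while IL1RAP, the accessory chain of that receptor, fell by 1.36 ± 0.07. Of the further targets, PLAU, the urokinase gene, was at 111 and 97.6 CPM with ΔIDR, 96.7 and 97.9 CPM with F158E, 29.1 and 29.04 CPM with full-length PML/RARα and 156 and 141 CPM with empty vector. It fell by 2.36 ± 0.07 with full-length PML/RARα. FTH1, the ferritin heavy chain gene, fell by 0.79 ± 0.03, and KLF6, a zinc finger transcription factor gene, rose by 1.01 ± 0.12.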

How the data were processed

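Total RNA of 8 NB4 libraries was depleted of ribosomal RNA and made into libraries with the kit named in the labels' protocols, which does not mark the strand. The authors deposited, for each library, unnormalized counts of reads per gene. The genome builds hg38 and GRCh38 are named in the submitters' processing notes, while the sources used here name no aligner, counting program or annotation release. Per the file headers and closing lines, 5 lines hold reads not assigned to a gene. They were left out, and 87.9% to 88.7% of recorded reads were assigned, with 3.37% to 3.47% set aside as ambiguous between genes and 4.18% to 4.61% as not uniquely aligned.

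Identifiers were matched without their version to a table of gene names (56321 of 60483) and to GENCODE release 29, which gave exon lengths. Exons of 14 of the 38 members overlap another gene, a protein-coding one for NFKBIB, CHUK, SOD2 and SQSTM1 among others, and without strand such reads cannot be assigned. Tests were quasi-likelihood fits in edgeR 4.0.16 (R 4.3.3) over all 8 libraries, with TMM factors (0.989 to 1.01), the filterByExpr rule and no replicate block, adjusted by Benjamini-Hochberg over all 13982 genes of a comparison. A second test (glmTreat) asked for a change beyond 1.5-fold. CPM are edgeR values with TMM scaling. The ± values are SE, taken from the log2 change and its F statistic. They and the p-values rest on the spread within all 4 groups of 2 libraries, estimated together. The 2 libraries of each group differed beyond counting noise, with a chi-square per degree of freedom of 2.94 to 3.56. Deviations of same-numbered libraries correlated at -0.0163 to 0.0206 between groups, so the numbers were not taken to pair libraries. The fits were first run on simulated counts that held known changes.

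The 38 genes, the further lists and the tests were chosen with earlier results of these data known. The text names all 38, PML and RARA, and the 3 further pathway genes with the smallest adjusted p in each direction. Markers were listed for promyelocytes (6), monocytes and macrophages (6), T, B and NK cells (6), erythroid cells and megakaryocytes (4), and epithelial, fibroblast and endothelial cells (7). Their summed levels over the 8 libraries were 3769 to 4780, 24.4 to 63.5, 26.3 to 47.9, 4.15 to 14.6 and 47.6 to 88.9 CPM in that order. Some listed genes are not reported here. Promoter windows are RefSeq's, GRCh38.p14. Alternatives were DESeq2 1.42.0, other scaling, no filter, the 4 libraries of a comparison alone, a replicate block and leaving out each library.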

Additional observations from a re-analysis of the deposited data

How the results depend on the processing

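Counts of members called stayed within 1.5 times of those reported under DESeq2, median-ratio scaling, library totals alone, the 4 compared libraries alone and the replicate block, in all 6 comparisons. The exception without the low-count filter was F158E against empty vector, with 6 called in place of 10. The test beyond 1.5-fold called 16 members with full-length against empty vector, 14 with F158E against full-length, 18 with ΔIDR against full-length, 1 with F158E against empty vector, 0 with ΔIDR against empty vector and 3 with ΔIDR against F158E. Leaving out 1 library gave 27 to 30, 25 to 27, 28 to 30, 5 to 10, 4 to 8 and 7 to 10 called in the same order. The lowest counts against empty vector came without empty vector replicate 2 (5 with F158E, 4 with ΔIDR), and F158E fell to 6 without F158E replicate 2, while ΔIDR fell to 4 without empty vector replicate 1 and 5 without ΔIDR replicate 1. With the replicate block the counts were 29, 26, 30, 11, 8 and 9 in that order, so the block moved no count by over 1.5 times. Leaving the 1.5-fold test aside, calls held under every alternative for 25 of 28, 25 of 26, 25 of 30, 5 of 10, 1 of 8 and 6 of 9 members. The cause was not tested.

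Values that changed sign were uncalled in the reported fits. With library totals alone, full-length against empty vector gave 0.0031 for RIPK2, 0.000871 for IKBKB and 0.0043 for PLEK, and F158E against full-length gave -0.013 for TNIP2, -0.00288 for RIPK2 and -0.0014 for IKBKB. Leaving out 1 library, full-length against empty vector ran from -0.0897 to 0.0503 for RIPK2, -0.0882 to 0.0438 for IKBKB, -0.0852 to 0.0485 for PLEK and -0.162 to 0.0372 for REL. For F158E against full-length the range was -0.0558 to 0.0724 for TNIP2, -0.0854 to 0.114 for RIPK2, -0.0500 to 0.0854 for IKBKB, -0.0038 to 0.17 for BIRC2, -0.87 to 3.50 for TNFRSF1B, -0.11 to 0.14 for REL and -0.11 to 0.65 for BCL3. For ΔIDR against full-length it was -0.0564 to 0.0307 for SOD2, -0.351 to 0.0103 for NFKBID, -0.14 to 0.87 for BCL3, -0.18 to 0.10 for REL and -0.0101 to 0.197 for IKBKB. CD83 ran from -0.0936 to 0.0016 with ΔIDR against empty vector and from -0.0021 to 0.0938 with ΔIDR against F158E. Depth limits BIRC3, TRAF1, TNFRSF1B, CSF1, BCL3 and NFKBID, each at 147 counts or fewer in every library.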

Other observations

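Some pathway genes outside the 38 were picked after their values were seen. IRAK2, an inducible relative of IRAK1, was at 11.3 and 9.89 CPM with ΔIDR, 9.00 and 10.7 CPM with F158E, 0.967 and 1.05 CPM with full-length PML/RARα and 17.3 and 17.7 CPM with empty vector. Its log2 change with full-length PML/RARα against empty vector was -4.11 ± 0.24 (edgeR), while IRAK1 and IRAK4 stood at 0.29 ± 0.03 and 0.38 ± 0.09. MYD88, the adaptor shared by these kinases, stood at 0.69 ± 0.12 in that comparison and at -1.12 ± 0.12 with F158E against full-length. MAP3K14, the gene of the kinase NIK, stood at -1.58 ± 0.24 with full-length PML/RARα. BCL2A1, a survival gene, averaged 20.4 CPM with ΔIDR, 6.88 CPM with F158E, 3.91 CPM with full-length PML/RARα and 10.4 CPM with empty vector.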
